A study of Homo sapiens with 6 samples.

Results

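The genes described here are 10 members of the interferon response, taken from an expression series on the human neuroblastoma cell line LA1-55n: EIF2AK2, IRF9, IRF2, ISG15, HERC5, BST2, IFIT1, IFIT2, IFI44 and DDX60. They were chosen by symbol, with 1 probe set each on the Affymetrix Human Gene 2.0 ST array, and make up 10 of the 14779 genes measured under a name. Of the 6 arrays, 3 came from shGLDC99 cells, which carry a tet-on hairpin directed at glycine decarboxylase (GLDC). The other 3 came from shGFP cells, whose tet-on hairpin is directed at GFP and serves as the control. Both groups received 0.5 µg/ml doxycycline over 7 days and so share the drug and the expression of a hairpin. Cells with no hairpin or no doxycycline were not analysed here, so the arrays compare 1 induced hairpin with another. The labels do not say whether each line is 1 clone or a pool, or whether the replicates a, b and c were grown apart beyond being independent samples. The p-values therefore measure the spread between these samples.

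Cells read double-stranded RNA as a sign of viral infection. Sensors such as RIG-I (RIGI) and MDA5 (IFIH1) then switch on interferon, which acts through JAK kinases and a complex that contains IRF9 on a promoter element called the interferon-stimulated response element (ISRE). The genes under this element encode antiviral proteins, among them the kinase PKR (EIF2AK2), which is activated by double-stranded RNA and stops protein synthesis by phosphorylating eIF2alpha. Since hairpin RNAs are themselves partly double-stranded, these genes are commonly examined in hairpin experiments.

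The promoters of the members are shown first because 7 of the 8 members with an entry in the RefSeq promoter table hold the core of the ISRE, whatever the direction of their difference. The core was searched as GAAANNGAAA (a GAAA half-site repeated after 2 free bases) on both strands, from 250 bases before to 50 bases after the start of each gene. It was present in 3.57% of the 35116 promoters of the table. In the stretches below, read along the strand of the gene, capitals mark the core, which appears as its reverse complement where it lies on the opposite strand.
EIF2AK2: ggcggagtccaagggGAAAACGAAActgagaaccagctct
ISG15: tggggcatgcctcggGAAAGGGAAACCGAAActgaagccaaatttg
HERC5: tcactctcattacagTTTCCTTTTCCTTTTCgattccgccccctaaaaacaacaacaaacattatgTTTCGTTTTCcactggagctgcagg
BST2: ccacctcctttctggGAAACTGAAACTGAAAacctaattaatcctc
IFIT1: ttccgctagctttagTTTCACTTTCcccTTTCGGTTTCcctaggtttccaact
IFI44: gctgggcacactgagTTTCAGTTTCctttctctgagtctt
DDX60: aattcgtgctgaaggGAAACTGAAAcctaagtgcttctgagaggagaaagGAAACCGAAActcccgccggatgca

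These stretches come from RefSeq on GRCh38.p14. They lie at chr2:37156962-37157001 on the minus strand for EIF2AK2, at chr1:1013369-1013414 on the plus strand for ISG15 and at chr4:88456979-88457069 on the plus strand for HERC5. Those of BST2 and DDX60 lie at chr19:17405730-17405775 and chr4:168318781-168318855, both on the minus strand. Those of IFIT1 and IFI44 lie at chr10:89392492-89392544 and chr1:78649756-78649795, both on the plus strand. HERC5 holds 3 copies of the core, and ISG15, BST2, IFIT1 and DDX60 hold 2 each. The copies of ISG15 and BST2, and a pair of those of HERC5, overlap by sharing a GAAA. EIF2AK2 holds 1 copy, which spans its start site (positions -6 to 4), and IFI44 holds 1. IRF9 holds no ISRE core in this window. It holds TTCNNNGAA, the core of a second element of interferon-responsive promoters, at positions -63 to -55. This core was found in 3 of the 8 members (IRF9, BST2 and DDX60, in BST2 partly overlapping the ISRE core) and in 7.66% of the promoters of the table. IRF2 and IFIT2 are named without a sequence.

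GLDC, the targeted gene, averaged 5.85 in shGLDC99 cells and 7.86 in shGFP cells on the log2 scale of the deposited values, and its groups did not overlap (limma adjusted p = 0.00101). Of 16 measured markers of neuroblastoma, HAND2 averaged 8.06 in shGLDC99 cells and 7.98 in shGFP cells, while STMN2, at 2.96 and 2.78, lay below the median over all genes. By their means over the 6 arrays, HAND1, DBH, ALK and RET also lay below that median. By the limma call defined below, 3 of the 16 rose (NCAM1, CHGB and RET) and 3 fell (ISL1, GATA2 and GATA3), that is 37.5% changed beside 8.52% of all genes. Of 11 measured leukocyte markers, 0 changed (limma, with 1 at an unadjusted p under 0.05). The mean over these markers was 3.93 to 4.04 in shGLDC99 arrays and 3.95 to 3.98 in shGFP arrays. Correlations over all probe sets were 0.993 to 0.994 within groups and 0.988 to 0.990 between them.

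In shGLDC99 cells, 2 of the 10 interferon response genes rose (EIF2AK2 and IRF2) and 3 fell (HERC5, BST2 and IFIT1), so the members did not move in 1 direction. In bulk RNA, fewer cells with a transcript and less of it in each cell cannot be told apart. A gene is said to have risen or fallen where its adjusted p in limma, a linear model fitted across all genes, was under 0.05. By this rule 8.52% of all 14779 genes changed, 3.72% higher and 4.80% lower in shGLDC99 cells. The groups did not overlap for 7 members, 4 higher and 3 lower, where 30.8% of all genes did not overlap, 14.5% higher and 16.3% lower. The median difference of the members was 0.16 on the log2 scale, beside -0.01 over all genes. The members and lists were chosen with earlier results of these data known, so these counts are descriptions.

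**Figure D1:**
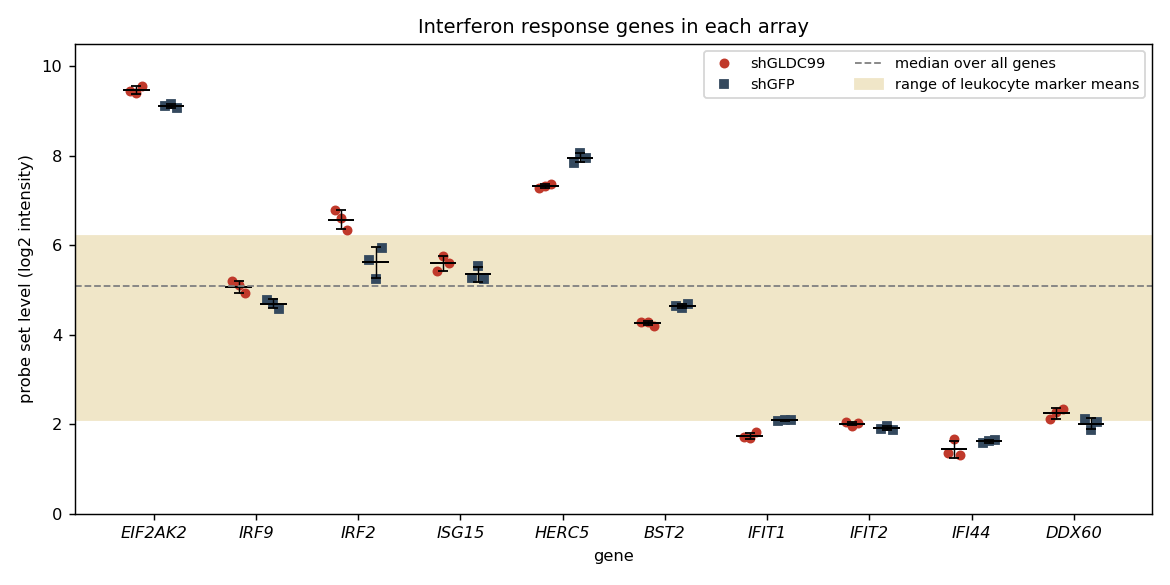
Level of each member gene (log2 intensity of its probe set) in the 3 shGLDC99 arrays (circles, left) and the 3 shGFP arrays (squares, right), with the mean and SD as bars. The dashed line is the median over all genes (5.09), and the band spans the means of 11 leukocyte markers (2.09 to 6.20); EIF2AK2 and HERC5 lie above the band in every array, and IFIT1, IFIT2, IFI44 and DDX60 lie near or under its lower edge.

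Levels of different probe sets depend on their binding as well as on transcript amount, so a level is given only as its place among all genes. The median over all genes was 5.09. As a guide to the level of genes that a neuroblastoma line is not known to use, the 11 leukocyte markers had means over the 6 arrays from 2.09 (LYZ) to 6.20 (CD8A), with a median of 3.87. By their means over the 6 arrays, 4 members (EIF2AK2, HERC5, IRF2 and ISG15) lay above the gene median and 6 below. EIF2AK2 and HERC5 alone exceeded the highest leukocyte marker. The other 8 members, IRF2 and BST2 among them, did not, so by this guide their levels are not shown to exceed background. The guide is strict, since its upper edge is 1 probe set and 9920 of all 14779 genes did not exceed it either. IFIT1, IFIT2 and IFI44 lay under even the lowest of these markers.

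EIF2AK2, the kinase activated by double-stranded RNA, rose in shGLDC99 cells. It read 9.44, 9.41 and 9.56 in shGLDC99 arrays a, b and c, against 9.12, 9.15 and 9.08 in shGFP arrays. All shGLDC99 arrays were above all shGFP arrays, and the mean level of the gene had a percentile of 97.3 among all genes. The difference was 0.36 ± 0.0688 (SE) on the log2 scale, or 1.28-fold (95% interval 0.19 to 0.52 on the log2 scale; limma adjusted p = 0.0274). The two-sided exact permutation p was 0.1, which is the lowest possible with 3 arrays in each group, and it was the same for the other members whose groups did not overlap. With any 1 of the 6 arrays left out the adjusted p lay between 0.0638 and 0.0914, so the call was lost.

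The regulators of the response include a repressor and an activator. IRF2, which binds interferon-responsive promoters and mostly represses them, showed the largest difference of the 10. It read 6.78, 6.60 and 6.35 in shGLDC99 arrays a, b and c, against 5.68, 5.25 and 5.94 in shGFP arrays. The groups did not overlap, but IRF2 also had the widest spread of the members, with SDs of 0.217 and 0.349 in shGLDC99 and shGFP cells. The rise was 0.95 ± 0.19 (SE), or 1.94-fold (95% interval 0.50 to 1.41 on the log2 scale; limma adjusted p = 0.0309). Of the 6 fits that leave out 1 array, the call was kept in 1, that without shGFP array c, where the difference was 1.11. Without any 1 of the other arrays the adjusted p was 0.0588 to 0.0952.

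IRF9, the subunit that recognises the ISRE, just missed the threshold. It read 5.20, 5.10 and 4.93 in shGLDC99 arrays, against 4.77, 4.72 and 4.58 in shGFP arrays. All shGLDC99 arrays were again above all shGFP arrays. The difference was 0.39 ± 0.0938 (SE), with a 95% interval of 0.16 to 0.61 and a limma adjusted p of 0.0524. It passed the threshold after a further quantile normalization (adjusted p = 0.0479), with array quality weights (0.0481), with a prior variance that follows intensity (0.0405) and without the dimmest 40% of genes (0.0174). It did not pass under the other 10 of 14 alternatives, with adjusted p-values of 0.0588 to 0.143 when any 1 of the 6 arrays was left out.

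The ISG15 system attaches a small ubiquitin-like protein to others. ISG15 itself read 5.42, 5.77 and 5.60 in shGLDC99 arrays, against 5.26, 5.55 and 5.25 in shGFP arrays. The groups overlapped, since shGFP array b lay above shGLDC99 array a. The difference of 0.24 had a 95% interval of -0.05 to 0.53 (limma adjusted p = 0.285), so neither no change nor a rise of the size seen for EIF2AK2 falls outside it. Without shGLDC99 array b the difference was 0.16.

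HERC5, the main ligase that transfers ISG15 to its targets in human cells, fell. It read 7.28, 7.34 and 7.36 in shGLDC99 arrays a, b and c, against 7.85, 8.05 and 7.95 in shGFP arrays. The gap between the groups was wider than the range within either. The fall was -0.63 ± 0.0748 (SE) on the log2 scale, or 1.54-fold lower (95% interval -0.81 to -0.45; limma adjusted p = 0.00750). HERC5 was the only member whose call held under all 14 alternatives tried, with adjusted p-values up to 0.0443. HERC6, its neighbour on the chromosome and closest relative, differed by 0.09 (limma adjusted p = 0.697), with overlapping groups.

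BST2 (tetherin), a membrane protein that holds budding virus particles on the cell surface, also fell. It read 4.29, 4.29 and 4.21 in shGLDC99 arrays, against 4.65, 4.60 and 4.70 in shGFP arrays. These values were below the gene median and within the range of the leukocyte markers, yet the arrays of each group lay within 0.1 of each other. The difference was -0.39 ± 0.0641 (SE), or 1.31-fold lower (95% interval -0.54 to -0.23; limma adjusted p = 0.0177). With any 1 of the 6 arrays left out the adjusted p was 0.0511 to 0.0668.

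**Figure D2:**
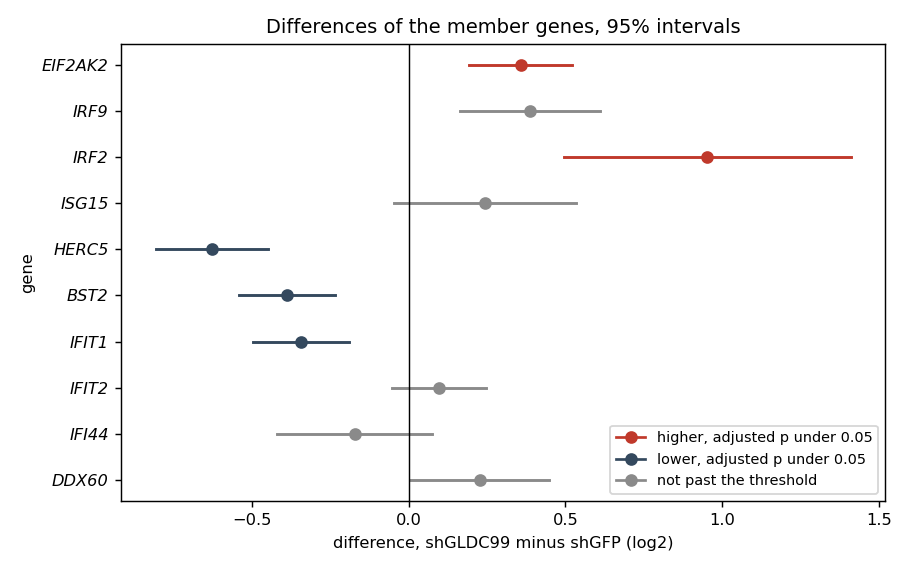
Difference of each member gene between shGLDC99 and shGFP cells (log2, shGLDC99 minus shGFP; point) with its 95% interval from limma (line). EIF2AK2 and IRF2 rose, HERC5, BST2 and IFIT1 fell, and the other 5 members were not past the threshold.

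IFIT1, IFIT2, IFI44 and DDX60 stood among the dimmest genes of the array in both groups. Other interferon-induced members did not, since ISG15, HERC5 and EIF2AK2 lay above the gene median. IFIT1, which binds foreign RNA through its cap, read 1.72, 1.70 and 1.82 in shGLDC99 arrays, against 2.07, 2.09 and 2.10 in shGFP arrays. It fell by 0.34 ± 0.0639 (SE), or 1.27-fold lower (limma adjusted p = 0.0250), at a percentile of 4.43 among all genes. The call was lost with a prior variance that follows intensity (adjusted p = 0.0736), and of the 6 fits that leave out 1 array it was kept in 1, that without shGLDC99 array c. At this level, under every leukocyte marker, the size of a change in transcript cannot be read from the probe set.

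IFIT2, a relative of IFIT1 on the same chromosome, read 2.04, 1.97 and 2.03 in shGLDC99 arrays, against 1.90, 1.97 and 1.88 in shGFP arrays. The difference was 0.10 with a 95% interval of -0.05 to 0.25 (limma adjusted p = 0.413). IFI44, a cytoplasmic protein induced by interferon, read 1.35, 1.67 and 1.32 in shGLDC99 arrays, against 1.57, 1.63 and 1.65 in shGFP arrays. Here shGLDC99 array b stood above all shGFP arrays while a and c stood below them. The difference was -0.17 with a 95% interval of -0.42 to 0.08 (limma adjusted p = 0.376). It was -0.28 without shGLDC99 array b and -0.11 without shGLDC99 array c.

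DDX60, a helicase reported to assist RIG-I, read 2.12, 2.28 and 2.34 in shGLDC99 arrays, against 2.11, 1.88 and 2.06 in shGFP arrays. The groups did not overlap, though array a of either group read nearly the same. The difference was 0.23 ± 0.0931 (SE) and was not past the threshold (limma adjusted p = 0.196). The relatives that neighbour these genes were equally dim where their members were: IFIT3 averaged 1.84 in shGLDC99 cells and 1.91 in shGFP cells, and IFI44L 1.98 and 2.09. DDX60L averaged 2.04 in shGLDC99 cells and 2.00 in shGFP cells. IFIT5 stood apart at 7.47 in shGLDC99 cells and 7.43 in shGFP cells, and differed by 0.04 (limma adjusted p = 0.761).

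The rest of the pathway was read from 8 lists of genes written from general knowledge, of which 137 of 261 genes were measured. Of these 137, 4 rose (2.92%) and 7 fell (5.11%), near the shares over all genes given below. Members account for 2 of the rises and 3 of the falls. Without the members, 2 of 127 genes rose (1.57%) and 4 fell (3.15%). Since the members were chosen with earlier results known, these lower shares partly follow from leaving them out. The median difference of the 127 genes was -0.0012. Among the 127, those that rose were TRIM25 and WARS1, and those that fell were GCH1, UBE2L6, JAK1 and EIF2AK3. For comparison with each list below, 3.72% of all 14779 genes rose and 4.80% fell. At an unadjusted p under 0.05 (limma), 1642 of all genes were higher and 1957 lower.

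**Figure D3:**
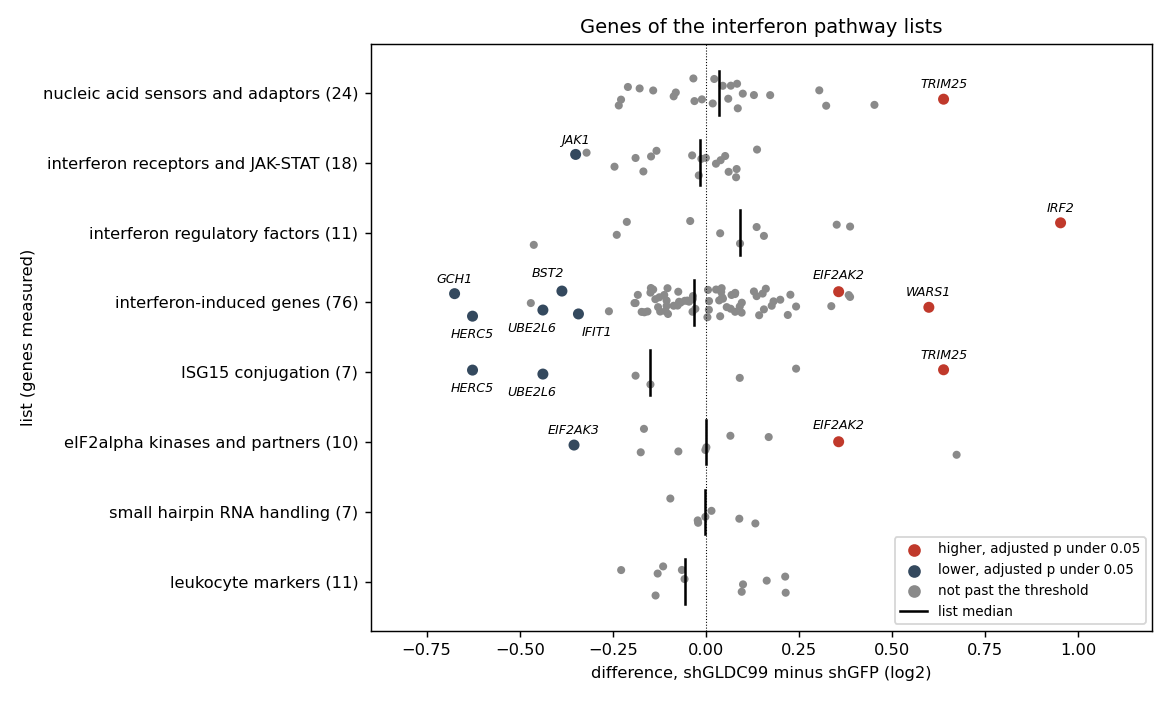
Difference of each measured gene (log2, shGLDC99 minus shGFP) in 7 pathway lists and in the leukocyte markers, with the number measured in brackets and the list median as a bar. Coloured and named genes passed an adjusted p of 0.05 in limma; a gene can stand in more than 1 list, and vertical scatter within a list has no meaning.

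Of 24 measured sensors and adaptors of foreign nucleic acid, 1 rose and 0 fell (limma; at an unadjusted p under 0.05, 2 higher and 2 lower). TRIM25, a ubiquitin ligase that acts on RIG-I and is itself induced by interferon, read 7.45, 7.31 and 7.32 in shGLDC99 arrays, against 6.67, 6.66 and 6.83 in shGFP arrays. All shGLDC99 arrays were higher, by 0.64 ± 0.0784 (SE) or more than any other sensor (limma adjusted p = 0.00804). RIGI itself averaged 4.64 in shGLDC99 cells and 4.72 in shGFP cells, and IFIH1 2.79 and 2.66 (limma adjusted p = 0.707 and 0.624). MAVS, the mitochondrial adaptor below both sensors, differed by 0.10 (limma adjusted p = 0.468).

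Of 18 measured genes of interferon receptors and JAK-STAT signalling, 0 rose and 1 fell (limma; at an unadjusted p under 0.05, 0 higher and 2 lower). JAK1, the kinase bound to interferon receptors, read 7.89, 7.91 and 7.92 in shGLDC99 arrays, against 8.26, 8.20 and 8.30 in shGFP arrays. The fall was -0.35 ± 0.0606 (SE; limma adjusted p = 0.0202), and the adjusted p was 0.0541 to 0.0739 with any 1 of the 6 arrays left out. IFNAR1 and IFNAR2 had no named probe set here, and of 22 listed interferon genes 0 were measured. Whether the cells made interferon was therefore not measured.

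Of 11 measured interferon regulatory factors and their cofactors, IRF2 alone rose and 0 fell (limma; at an unadjusted p under 0.05, 3 higher and 2 lower). IRF3, which is activated below the RNA sensors, differed by -0.46 with all shGLDC99 arrays below all shGFP arrays (limma adjusted p = 0.0979). IRF1, which opposes IRF2 on shared promoters, averaged 3.15 in shGLDC99 cells and 3.01 in shGFP cells (limma adjusted p = 0.574). IRF7, an amplifier of the response, averaged 3.30 in shGLDC99 cells and 3.26 in shGFP cells (limma adjusted p = 0.908).

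Of 76 measured interferon-induced genes, 2 rose (2.63%) and 5 fell (6.58%), beside 3.72% and 4.80% of all genes. On this list 37 were higher and 39 lower, and the list median was -0.03. Members account for EIF2AK2 among the rises and for HERC5, BST2 and IFIT1 among the falls. WARS1, the tryptophanyl-tRNA synthetase, which ATF4 also induces, rose by 0.60 ± 0.0758 (SE; limma adjusted p = 0.00870). GCH1, an enzyme of tetrahydrobiopterin synthesis that inflammatory signals induce, fell by 0.68 ± 0.0704 (SE; limma adjusted p = 0.00551). With means over the 6 arrays of 5.87 for WARS1 and 6.18 for GCH1, neither exceeded the highest leukocyte marker (6.20). The antiviral effector RSAD2 averaged 2.68 in both groups, and the chemokine CXCL10 averaged 1.64 in shGLDC99 cells and 1.56 in shGFP cells.

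**Figure D4:**
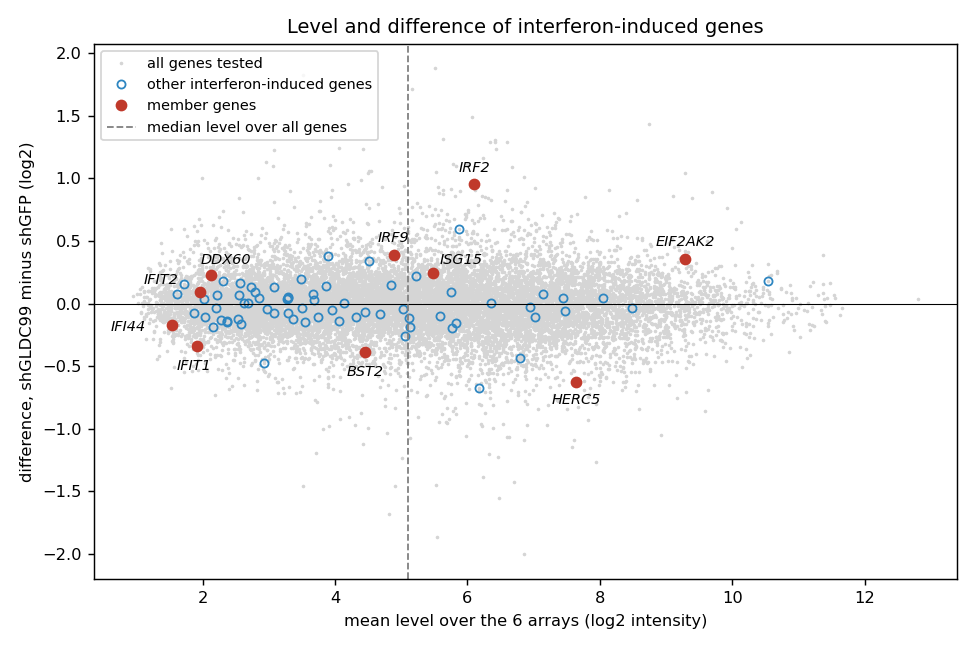
Difference (log2, shGLDC99 minus shGFP) against mean level over the 6 arrays (log2 intensity) for all 14779 genes (grey), the member genes (filled) and the other measured interferon-induced genes (open); the dashed line is the median level over all genes. The median level of the 76 interferon-induced genes was 3.67, below 5.09 over all genes, and their differences lie on both sides of 0.

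The genes listed for ISG15 conjugation did not differ in 1 direction, with 3 higher and 4 lower, HERC5, UBE2L6 and UBA7 among the lower. Of 7 measured genes of ISG15 conjugation, 1 rose (TRIM25) and 2 fell (HERC5 and UBE2L6), with a list median of -0.15. That is 42.9% changed beside 8.52% of all genes. UBE2L6, the conjugating enzyme that hands ISG15 to HERC5, read 6.67, 6.61 and 6.45 in shGLDC99 arrays, against 7.01, 6.99 and 7.04 in shGFP arrays. It fell by 0.44 ± 0.0761 (SE; limma adjusted p = 0.0205), and of the 6 fits that leave out 1 array the call was kept in 1, that without shGLDC99 array a. UBA7, the activating enzyme, differed by -0.15 (limma adjusted p = 0.527). USP18, which removes ISG15, differed by -0.19 (limma adjusted p = 0.414).

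The kinases of eIF2alpha split as well: of 10 measured kinases and partners, 1 rose and 1 fell, with a list median of 0.00015. That is 20% changed beside 8.52% of all genes. EIF2AK2 rose, and EIF2AK3 (PERK), the kinase of the endoplasmic reticulum, fell by 0.35 ± 0.0796 (SE; limma adjusted p = 0.0431). With any 1 of the 6 arrays left out the adjusted p of EIF2AK3 was 0.0814 to 0.119. EIF2AK4 (GCN2), activated by uncharged tRNA, differed by 0.17 with all shGLDC99 arrays higher (limma adjusted p = 0.131), and EIF2AK1 (HRI), the haem-regulated kinase, by -0.17 with all shGLDC99 arrays lower (limma adjusted p = 0.136). Downstream, ATF4 differed by 0.07 (limma adjusted p = 0.562) and its target DDIT3 by 0.67 (limma adjusted p = 0.0725).

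Of 7 measured genes of small hairpin RNA handling, 0 rose and 0 fell (limma, with 0 at an unadjusted p under 0.05). The largest difference was 0.13 for XPO5, the exporter of hairpin RNAs from the nucleus (limma adjusted p = 0.276), followed by -0.10 for TNRC6C, a silencing partner of Argonaute proteins (limma adjusted p = 0.698). DICER1, DROSHA and the Argonaute genes were not measured under a name.

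Genes that hold the promoter element were called in both directions. Among 415 measured genes with the ISRE core in a RefSeq promoter, 4.58% rose and 5.54% fell, beside 3.88% and 5.48% of the 10300 measured genes whose promoter entries hold none. Of the 59 interferon-induced genes with a promoter entry, 39 held the core (66.1%). Of these 39, EIF2AK2 and WARS1 rose and HERC5, BST2 and IFIT1 fell, with a median difference of -0.03. Of the 20 without it, UBE2L6 fell and 0 rose, with a median of 0.05.

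Outside the pathway, the genes closest to each changed member were taken by the root mean square distance between profiles over the 6 arrays, each centred on its own mean. For EIF2AK2 these were HINT3 (distance 0.0151 on the log2 scale), JAKMIP2 (0.0234) and PUS7L (0.0246). For IRF2 they were VTRNA1-3 (0.144), SYN3 (0.147) and MIR3689E (0.152), far less alike than for any other changed member. For HERC5 they were SLC35F6 (0.0308), GLI2 (0.0314) and STK40 (0.0425). For BST2 they were MYDGF (0.0148), NET1 (0.0183) and CDC20 (0.0213), and for IFIT1 AATF (0.0120), CDC7 (0.0191) and KIF11 (0.0208). With 6 arrays in 2 groups, likeness mostly follows the size of the group difference.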

How the data were processed

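Affymetrix Human Gene 2.0 ST arrays were used for the RNA of 6 samples. The deposited values, 1 per probe set and array, were read as log2 intensities. The labels do not state the log base. It was inferred from the largest value, 13.28, since a 16-bit scanner reading has a natural log of at most 11.09. Partek is named in the submitters' processing notes without a version, and how background, normalization and summarisation were done, and the genome build, is not given in the sources used here. The arrays had medians of 4.28 to 4.33 and were not normalized further.

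Of 31135 probe sets, 15098 carried 1 gene symbol, 0 several and 16037 none here; all 15098 matched the RefSeq gene table by Entrez ID. They covered 14779 genes, and 256 genes with several probe sets were represented by the brightest. Groups came from the sample titles. Differences (shGLDC99 minus shGFP) were fitted in R 4.3.3 by lmFit and eBayes of limma 3.58.1 without covariates, adjusted by Benjamini-Hochberg over all 14779 genes. The model was tested on simulated data. Of 200 genes given a difference there, 127 were called in the right direction, and 6 unchanged genes were called. A gene not past the threshold is therefore not shown to be unchanged. Plots and motif searches used Python 3.11.15 with pandas 2.3.3, numpy 2.4.6 and matplotlib 3.10.9; tables were read in R with the data.table package (version 1.17.8). Precision is limited by the number of arrays.

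The members and lists were chosen with earlier results of these data known. Named genes were the 10 members, GLDC, from the 8 pathway lists each gene past the threshold, up to 8 a list, and the 2 largest differences of a list with none, and the 3 nearest profiles of each changed member. Other list genes and the named genes of the 2 marker lists were chosen after their values were seen, for their roles. Olfactory receptors were planned as a guide to unused genes, but only 1 was named here, so the leukocyte markers took their place after the data were seen.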

Additional observations from a re-analysis of the deposited data

How the results depend on the processing

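All 10 members kept the direction of their difference under each of the 14 alternatives that could be run for them; IFIT1, IFIT2, IFI44 and DDX60 fall among the dimmest 40% of genes and had 13. The main counts were 2 members higher and 3 lower, 4 and 7 genes of the pathway lists higher and lower, and 1259 of all genes changed. With the replicate block these became 0 and 1, 1 and 2, and 229. The labels do not say whether the replicate letters pair the samples. Deviations of same-lettered arrays correlated at -0.01, 0.02 and -0.0011, and 2 of 6 arrays correlated best with their own letter. With 3 arrays in each group these values cannot settle whether the samples are paired. Leaving out 1 array in turn gave 0 to 1 members higher and 1 to 2 lower, 2 to 3 list genes in either direction, and 461 to 546 genes in all; each of the 6 arrays had such an effect. An intensity trend in the prior variance gave 2438 changed genes, with 11 list genes higher, and leaving out the dimmest 40% of genes gave 2221, with 8 list genes higher. The cause of these shifts in the counts was not tested. HERC5 and GCH1 kept their call under all 14 alternatives, TRIM25 and WARS1 under 13 of 14. Signal over background is not given in the values used here, so the changes of the dimmest members are not shown to be changes in transcript.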
